A study of Arabis alpina with 12 samples.

Results

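A single gene, Aa_G492360, met a criterion on the shares of annotated transcript rows in leaf and apex, among 1525 genes to which it could be applied. The criterion was meant to find genes that switch transcript forms between organs. The counts of this gene, given below, cannot show whether it does so, because its rows may share reads. The deposited tables give read counts for 39814 annotated transcripts (rows) of 35465 Arabis alpina genes, and 3593 genes have 2 or more rows. The criterion took genes with 2 or more rows and a count, summed over rows, of at least 100 in each of the 6 wild-type libraries. The share of a row is its count divided by that sum in the same library. A gene was chosen when the mean share of some row differed by at least 15 percentage points between wild-type apex and wild-type leaf with no overlap between the 3 and 3 shares. The gene was thus chosen by its wild-type shares, which are given as a description, with no test.

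RNA from leaves and from shoot apices of the accession Pajares, a perennial relative of Arabidopsis, was sequenced in pep1-1 mutants and in the wild type (WT), with 3 libraries in each of the 4 groups. PEP1 is the counterpart of the Arabidopsis floral repressor FLC. All plants were grown in long days at 22 °C and collected at ZT8, 8 h after lights on; the labels give an age of 2 weeks and the design text an age of 10 days. Mutant libraries were identified by the genotype label, whereas their titles read PEP1. Nothing in the labels ties replicates to separate plants, so p-values reflect the spread between these libraries, which may be technical. Effects of the mutation and of any other difference between the pep1-1 and Pajares plants cannot be told apart. An apex sample holds young leaf primordia and stem tissue as well as the meristem, and in such bulk samples fewer cells of a type cannot be told apart from less RNA per cell.

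A plant gene can give rise to several transcripts through alternative splicing, through different start sites, or through polyadenylation at an upstream site that leaves a short transcript. Annotated forms overlap, so most reads fall in sequence that several forms share, and a count table with 1 row per form can count such a read in every row. The files pair identifiers with no gene names, so the function of Aa_G492360 is not given, and neither its sequence nor the identity of PEP1 in the tables was analysed here.

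Aa_G492360 lies on chromosome 5 and has 2 rows that share their lower end. Row t1 spans 16757441 to 16758031 (591 bp) and row t2 spans 16757441 to 16760371 (2931 bp), so that 2340 bp of t2 lie beyond t1. Coordinates are those of the deposited tables, for which no genome build, exons or strands were used here. The upper end of t2 overlaps another gene model, Aa_G492370 (16760136 to 16760472, 337 bp), by 236 bp, which is 70.0% of that model. Between the end of t1 and the start of Aa_G492370 there are 2104 bp. The next gene model begins 3306 bp above Aa_G492360, and it had mean counts of 6.67 to 11.3 per group.

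**Figure D1:**
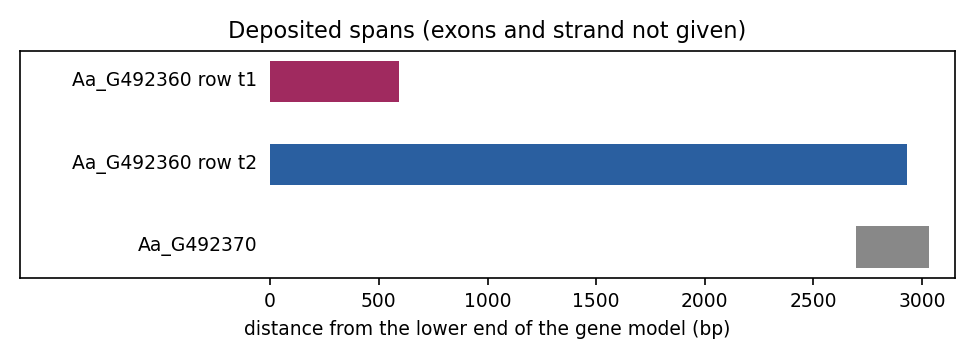
Deposited spans of the 2 rows of Aa_G492360 and of the overlapping gene model Aa_G492370, drawn to scale as the distance in bp from the lower end of Aa_G492360. Row t1 covers the first 591 bp of t2, and Aa_G492370 overlaps t2 by 236 bp at its other end.

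The short row made up a larger part of the gene's counts in the apex. In WT leaf, t1 had 55, 25 and 61 reads beside 223, 152 and 296 for t2. In WT apex it had 182, 172 and 119 reads beside 296, 270 and 204 for t2. The t1 share was therefore 19.8%, 14.1% and 17.1% in the WT leaf libraries and 38.1%, 38.9% and 36.8% in the WT apex libraries, and the highest leaf library stood 17.1 percentage points below the lowest apex library. Mean shares were 17.0% ± 2.83 in leaf and 37.9% ± 1.04 in apex (SD, n = 3 each), a difference of 20.9 points. The share of t2 is the remainder and moved by the same amount in the opposite direction. Row t2 had more reads than t1 in 12 of 12 libraries, so the leading row was the same in both organs. Row t1 lies within the span of t2, and its reads may also be counted in t2. In that case t2 could not fall below t1, so this order cannot show whether transcript forms were exchanged. Of 162 genes with a short and a long row sharing a single end, 94 had the short row never above the long row in the 12 libraries. The exact 95% binomial interval of the t1 share was 15.3% to 25.0% for the highest WT leaf library and 31.6% to 42.4% for the lowest WT apex library. These intervals cover counting error only, and they treat the reads of the rows as separate.

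The pep1-1 libraries, which played no part in the choice, gave the same order. In pep1-1 leaf t1 had 62, 37 and 58 reads beside 271, 141 and 165 for t2. In pep1-1 apex it had 172, 222 and 329 reads beside 265, 377 and 482 for t2. The t1 share was 18.6%, 20.8% and 26.0% in the leaf libraries and 39.4%, 37.1% and 40.6% in the apex libraries, with no overlap and a gap of 11.1 points between the organs. The exact 95% binomial intervals of the highest leaf library, 20.4% to 32.3%, and of the lowest apex library, 33.2% to 41.1%, lay close together. The means were 21.8% ± 3.80 in leaf and 39.0% ± 1.78 in apex (SD, n = 3 each), a difference of 17.2 points. The criterion applied to pep1-1 alone was met by 1 of 1510 genes with at least 100 summed counts in all 12 libraries (0.0662%), and that gene was Aa_G492360. The corresponding share in WT, which the choice fixed, was 0.0656%.

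The test of row usage set for this comparison did not call the gene. In edgeR's gene-level test of differential row usage between pep1-1 apex and leaf, Aa_G492360 ranked 5 of 1625 genes, with an unadjusted p of 0.000353 and an adjusted p of 0.115 (Benjamini-Hochberg over all genes tested). Only 3 genes passed an adjusted p of 0.05, which is 0.185% of those tested, and 13 had an unadjusted p under 0.05. Evenly spread p-values would put more genes under 0.05, so the test was conservative and a missing call says little. With each pep1-1 library left out in turn the difference in share ranged from 15.6 to 19.3 points, and the adjusted p from 0.121 to 1. A DESeq2 test of each row against the other rows of its gene, with the library as a factor, gave an adjusted p of 7.85e-06, and edgeR with all 12 libraries in 1 fit gave 0.0161. The first of these tests treats the rows as separate counts, although they may share reads. The second of these values draws on the WT libraries for its estimate of spread. Other settings did not call the gene. The edgeR adjusted p was 0.134 with DESeq2 size factors, 0.170 without the count filters and 0.489 with Simes p-values. It was 0.763 in edgeR with the replicate number as a block, and limma gave 0.227. An exact two-sided permutation test of the t1 share alone gave p = 0.1, the smallest that 3 against 3 libraries allow.

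**Figure D2:**
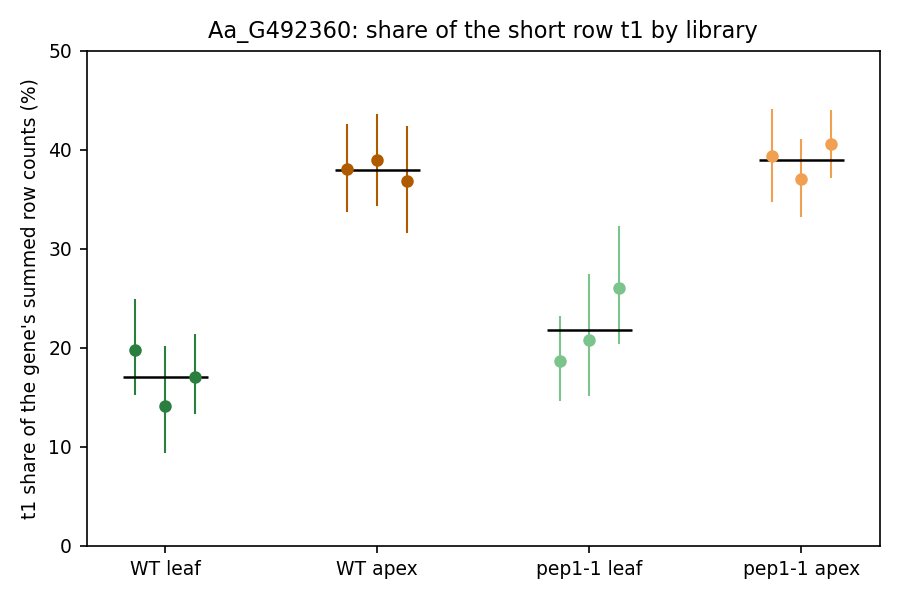
Share of row t1 in the summed row counts of Aa_G492360, in percent, for the 12 libraries. Points are libraries with exact 95% binomial intervals and horizontal lines are group means; all apex libraries lie between 36.8% and 40.6% and all leaf libraries between 14.1% and 26.0%.

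The change in share came with a change in the level of t1. Levels are given in CPM, read counts scaled to library size over all 12 libraries. Row t1 stood at 1.14, 0.849 and 1.26 CPM in WT leaf and at 6.22, 5.76 and 6.79 CPM in WT apex. In pep1-1 it stood at 1.38, 1.26 and 1.61 CPM in leaf and at 6.31, 6.48 and 9.09 CPM in apex. The lowest apex library was thus above the highest leaf library in each genotype. Group means of t1 rose in the order WT leaf, pep1-1 leaf, WT apex and pep1-1 apex, at 1.08 ± 0.210, 1.42 ± 0.176, 6.26 ± 0.516 and 7.29 ± 1.56 CPM (SD, n = 3 each). The highest WT leaf library and the lowest pep1-1 leaf library stood together at 1.26 CPM, and the 2 apex groups overlapped.

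Row t2 also had more reads in the apex. It stood at 4.61, 5.16 and 6.10 CPM in WT leaf and at 10.1, 9.04 and 11.6 CPM in WT apex. In pep1-1 it stood at 6.05, 4.79 and 4.57 CPM in leaf and at 9.72, 11.0 and 13.3 CPM in apex, again with no overlap between organs. In pep1-1 the log2 fold change of apex over leaf was 2.35 for t1 (SE 0.19, edgeR adjusted p = 8.28e-06) and 1.13 for t2 (SE 0.15, edgeR adjusted p = 0.000205). These tests of single rows were chosen after the shares had been seen. Differences between the organs were common: 65% of the 25531 rows tested passed the same threshold in pep1-1, 31.4% with the higher level in apex. The count summed over both rows was higher in pep1-1 apex, with a log2 fold change of 1.49 (SE 0.14, edgeR adjusted p = 3.29e-05), against a background of 31.8% of genes called higher in apex. With the row of most reads in place of the sum, the log2 fold change was 1.13.

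The part of the t2 count in excess of t1 was close to level between the organs. If every read of t1 was also counted in t2, this excess is the number of reads that lie outside t1; whether it was so was not tested. The excess was 168, 127 and 235 reads in WT leaf, 114, 98 and 85 in WT apex, 209, 104 and 107 in pep1-1 leaf, and 93, 155 and 153 in pep1-1 apex. On the CPM scale it was 4.21 ± 0.693 in WT leaf, 4.01 ± 0.790 in WT apex, 3.72 ± 0.868 in pep1-1 leaf and 4.05 ± 0.577 in pep1-1 apex (SD, n = 3 each). The organs overlapped in each genotype, and in pep1-1 they differed by 0.331 CPM (exact two-sided permutation p = 0.7, where 0.1 is the smallest possible).

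The overlapping gene model had somewhat more reads than that excess in each library. Aa_G492370 had 183, 139 and 255 reads in WT leaf, 133, 126 and 94 in WT apex, 220, 128 and 122 in pep1-1 leaf, and 113, 197 and 239 in pep1-1 apex. Its count was 109%, 109% and 109% of the excess of t2 over t1 in WT leaf and 117%, 129% and 111% in WT apex. In pep1-1 it was 105%, 123% and 114% in leaf and 122%, 127% and 156% in apex. These percentages were higher in apex than in leaf without overlap in WT, and they overlapped between the organs in pep1-1. The count of t2 was 84.9% to 96.1% of the count of t1 plus that of Aa_G492370, with a median of 92.8%, and it was no larger than this sum in 12 of 12 libraries. Row t1 enters both sides of that comparison and holds more of the reads in apex. These comparisons were chosen after the counts had been seen. Which reads the rows shared, and the part of Aa_G492370 in the change of share, were not tested. In WT, Aa_G492370 had a level of 4.58 ± 0.748 CPM in leaf and of 4.71 ± 0.589 CPM in apex, and in pep1-1 levels of 4.21 ± 0.777 and 5.50 ± 1.25 CPM (SD, n = 3 each). Its log2 fold change in pep1-1, apex over leaf, was 0.38 (SE 0.20, edgeR adjusted p = 0.129), and the adjusted p was 0.0289 without pep1-1 apex replicate 1. Of the 1525 genes, 33 overlap another gene model. Aa_G492360 is 1 of these, so leaving them out had to give 0 genes that met the criterion.

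**Figure D3:**
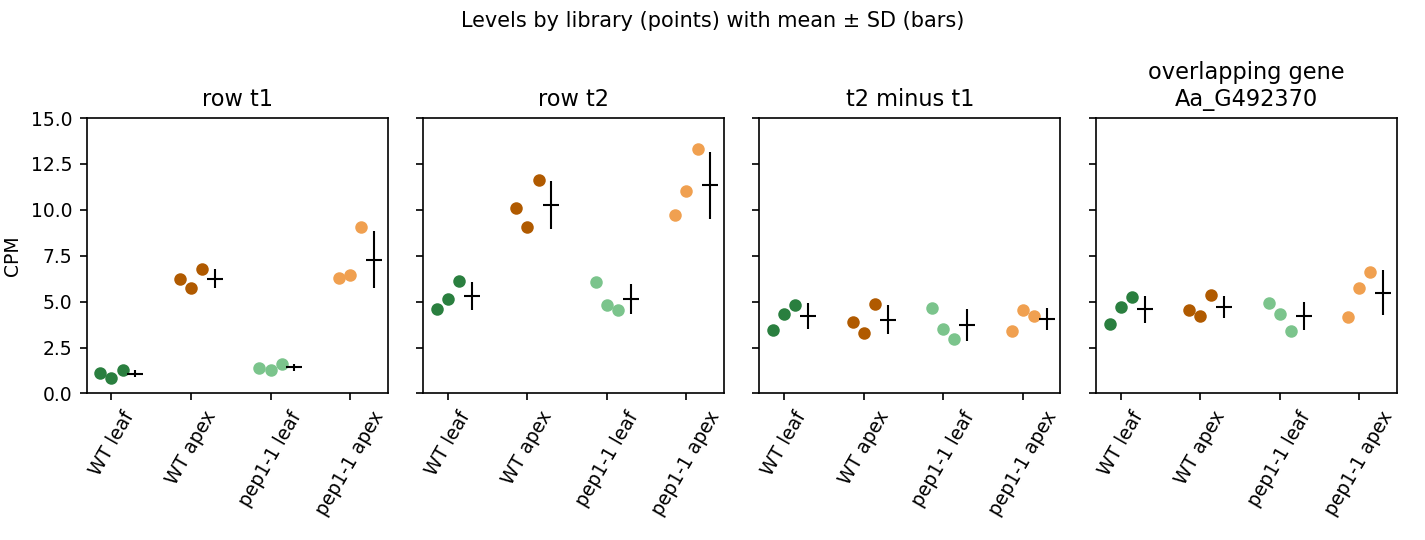
Levels in CPM of row t1, row t2, the difference of t2 minus t1, and the overlapping gene Aa_G492370 in the 12 libraries. Points are libraries and bars show the mean and SD of 3; t1 and t2 are higher in apex than in leaf in both genotypes, whereas t2 minus t1 and Aa_G492370 overlap between organs.

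**Figure D4:**
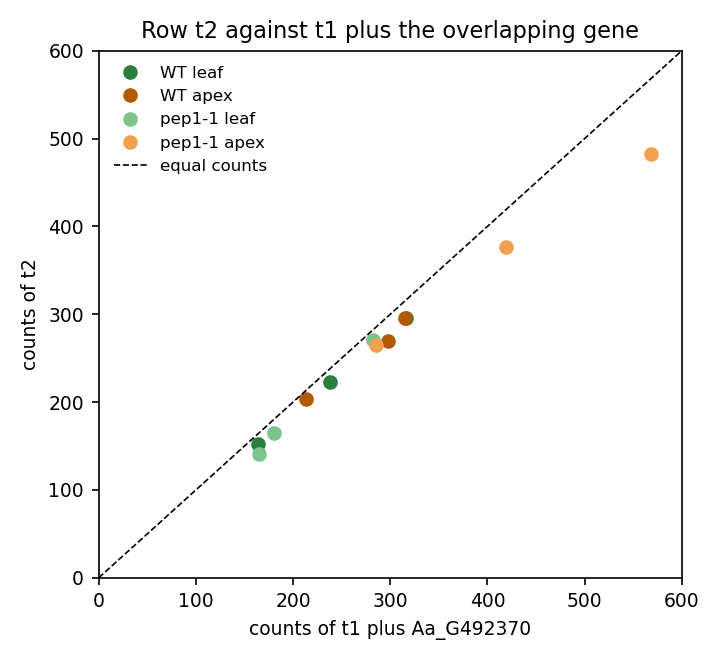
Counts of row t2 (vertical axis) against the counts of row t1 plus Aa_G492370 (horizontal axis) in the 12 libraries, coloured by group, with a dashed line of equal counts. All libraries lie on or below the line, at 84.9% to 96.1% of the sum.

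Genotype was compared within each organ. The t1 share was 4.81 points higher in pep1-1 leaf than in WT leaf, with overlapping libraries, and 1.05 points higher in pep1-1 apex than in WT apex, again with overlap. The exact two-sided permutation p was 0.2 in leaf and 0.4 in apex, and the edgeR adjusted p of row usage was 1 in each. Before adjustment the edgeR p was 0.115 in leaf (rank 4 of 1735 genes) and 0.724 in apex (rank 34 of 1557). With single libraries left out, the difference ranged from 2.70 to 6.40 points in leaf and from 0.267 to 2.02 points in apex. The WT libraries of these comparisons helped to choose the gene. In leaf edgeR called 0 of 1735 genes, with 1 gene at an unadjusted p under 0.05, and limma called 0. DESeq2 called 1 of 1514 genes, each read by its row of largest WT organ difference, so its count is not like the others. In apex edgeR called 1 of 1557 genes (0.0642%), which was not Aa_G492360, and 2 had an unadjusted p under 0.05. In both organs evenly spread p-values would put more genes under 0.05, so these tests were conservative too.

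Whether the organ difference depends on genotype was tested with the interaction term. The organ difference of the t1 share, pep1-1 minus WT, was -3.75 points (edgeR unadjusted p = 0.337, adjusted p = 1). It ranged from -5.35 to -1.65 points with each of the 12 libraries left out. No gene of 1510 passed in edgeR, in limma or in DESeq2, and edgeR had 1 gene at an unadjusted p under 0.05. That is fewer than evenly spread p-values would give. The edgeR test was thus conservative, and it cannot show that the organ difference is the same in both genotypes. The choice on WT values itself favours a larger difference in WT. Summed over rows, the level did not pass the test between genotypes, with a log2 fold change of 0.02 in leaf (SE 0.14, edgeR adjusted p = 0.978) and 0.17 in apex (SE 0.14, edgeR adjusted p = 0.714). At the same threshold 0.413% of genes were called in leaf and 0.234% in apex. Row t1 taken alone had a log2 fold change of pep1-1 over WT of 0.36 in leaf (SE 0.21, edgeR adjusted p = 0.651) and 0.22 in apex (SE 0.16, edgeR adjusted p = 0.676), where 0.483% and 0.26% of rows were called.

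The shares of most other genes differed little between the WT organs, which is a description of the values that chose Aa_G492360. Over the 1525 genes the largest difference of any row had a median of 0.0598 points, and 6 genes reached 5 points without overlap. In 1261 of these genes (82.7%) all rows have the same span, and there the median was 0.0443 points and the maximum 3.63. The 102 genes whose rows share their lower end alone, the class of Aa_G492360, had a median of 0.156 points, and no other gene of this class reached 5 points. In 65 genes all rows held identical counts in every library. A share can move little where rows hold nearly the same reads, so these small values do not show that the genes keep their transcript forms. The minimum of 100 counts also set the result: at a minimum of 50, a gene on chromosome 1 (3681220 to 3685940) met the criterion as well, with a difference of 19.5 points in WT and 19.9 points in pep1-1.

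The genes just below the threshold had rows that lie apart. The first, on chromosome 2 (23085794 to 23090595), had a row whose mean share was 25.4% in WT leaf and 13.1% in WT apex, a difference of 12.3 points. The second, on chromosome 1 (24652626 to 24660664), had a row at 29.1% in WT leaf and 39.2% in WT apex, a difference of 10.1 points. In pep1-1 the mean share of the first gene's row was 21.9% in leaf and 11.0% in apex. That of the second gene's row was 29.6% in leaf and 39.4% in apex. Neither row's shares overlapped between the organs in pep1-1, so a repeat in the mutant was not particular to Aa_G492360. In each gene, a longer row reaches over a lower and an upper piece that do not overlap. In the second gene it covers both pieces in full. In the first gene it ends at 23090544, short of the end of the upper piece at 23090595, and 2 rows have the span of that piece. The longer row held 100% to 101% of the reads of the lower piece and 1 upper row together in the first gene, and 95.5% to 100% of those of its pieces in the second. Those values lay mostly above the 84.9% to 96.1% found for t2 against t1 plus Aa_G492370.

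**Figure D5:**
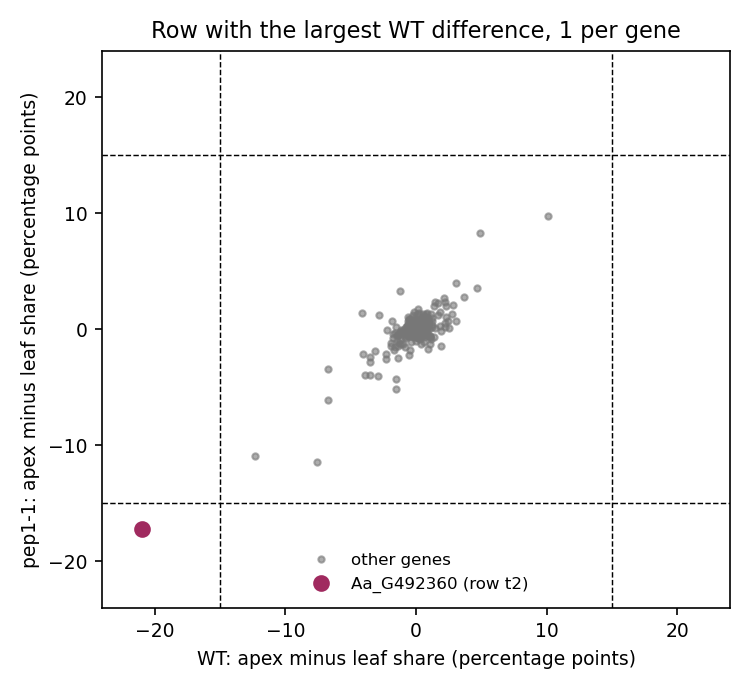
Difference of the mean share between apex and leaf, in percentage points, in WT (horizontal axis) and pep1-1 (vertical axis), for the row with the largest WT difference in each of the 1525 genes. Dashed lines mark 15 points in either direction; Aa_G492360, drawn by row t2, fell by 20.9 points in WT and by 17.2 points in pep1-1, and no other gene lies beyond the lines in either genotype.

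Depth limits these shares. Counts summed over all rows ranged from 20832193 to 46102713 per library, yet Aa_G492360 had only 177 to 811 reads over both rows. Over all rows, replicates differed beyond counting error in each pair, with chi-square values of 5.15 to 76.6 per degree of freedom, and no library was a copy of another.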

How the data were processed

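Polyadenylated RNA from 4 µg of total RNA was made into TruSeq libraries with 12 PCR cycles, per the labels' protocols. The deposited values are the authors' raw read counts per annotated transcript. The submitters' processing notes name TopHat, bedtools and DESeq2 1.10.0 without a role. Not given in the sources used here are the genome build, annotation version, strand setting and the treatment of reads shared by rows.

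Row shares were computed from the counts. Row usage was tested with edgeR 4.0.16 in R 4.3.3 (glmQLFit with robust dispersion, TMM factors, diffSpliceDGE gene-level F test) on genes with a summed count of at least 100 in each library of the fit and rows with a mean count of at least 5. This test treats the rows of a gene as independent, whereas rows may share reads. Sums over rows and single rows were tested with the edgeR quasi-likelihood F test after filterByExpr; sums can count a read more than once. The threshold was a Benjamini-Hochberg adjusted p of 0.05 over all features tested. Standard errors were approximated by dividing the size of the log2 fold change by the square root of F. CPM values use TMM factors over all 12 libraries. Alternatives were DESeq2 1.42.0 (size factors and Wald tests), limma 3.58.1 (voom and diffSplice), other filters and thresholds, the replicate number as a block, and each library left out. The DESeq2 test of row usage was read in each gene for the row of largest WT difference, with adjustment over all rows tested. The procedure was tested on simulated counts in which each row was drawn independently, so that check does not cover rows that share reads.

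The criterion, the tests and the alternatives were chosen with earlier results of these data known. Named genes were to be the 12 members of largest WT difference in each direction and the 2 genes just below the threshold; 1 member was found. The model Aa_G492370 was named after its values were seen. Its tests and those of single rows were added at that stage.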

Additional observations from a re-analysis of the deposited data

How the results depend on the processing

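The number of genes that met the criterion was 3 at a minimum difference of 0.10 and 0 at 0.30, 2 at a summed count of 50, 0 at 500, 0 without overlapping gene models, and 6 with the largest row as denominator; it was 1 to 1 with single WT libraries left out. The gene added at 50, on chromosome 1, had a lowest WT sum of 86 reads and overlaps no other gene model. The repeat in pep1-1 was lost (0 genes) at a minimum of 0.20, at a summed count of 500 and without overlapping models, and was kept (1 to 1) with single libraries left out. Without overlapping models both counts had to be 0, because Aa_G492360 itself overlaps another model. At 500 the gene could not be tested for row usage.

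For row usage between organs in pep1-1, the adjusted p was 7.85e-06 with DESeq2 and 0.0161 with all 12 libraries, 0.489 with Simes p-values, 0.227 with limma, and 0.121 to 1 with libraries left out; the cause was not tested. The genes called numbered 3 and ranged from 1 to 7. Genotype tests of row usage kept an adjusted p of 1 to 3 significant digits in all settings. The summed level between genotypes in leaf changed sign with the row of most reads (log2 -0.06, adjusted p = 0.943) and with single libraries left out (log2 -0.07 to 0.15, adjusted p = 0.895 to 0.995). In leaf, t2 alone (log2 -0.19 to 0.07, adjusted p = 0.690 to 0.991) and Aa_G492370 (log2 -0.27 to 0.0030, adjusted p = 0.492 to 0.999) also did. Aa_G492370 between organs in pep1-1 had an adjusted p of 0.0289 to 0.341 with libraries left out. Genes called between genotypes on summed counts were 95 in leaf (37 to 350) and 52 in apex (15 to 492), and rows called were 123 in leaf (46 to 511) and 64 in apex (17 to 684).

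Deviations of same-numbered pep1-1 leaf and apex libraries correlated at 0.11, -0.072 and -0.0086, those of WT and mutant leaf at 0.036, 0.20 and -0.090, and those of WT and mutant apex at 0.30, 0.00026 and 0.28, and pairing by number was not assumed. With the replicate block the adjusted p of row usage in pep1-1 was 0.763 and that of the summed level 0.000206. The block changed no call for Aa_G492360; the genes called on summed counts became 60 in leaf and 492 in apex.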
